A study of Mus musculus with 12 samples.

Results

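The nuclear-encoded genes of the mitochondrial respiratory chain were described in cultured mouse muscle cells of 2 lines. Members were chosen by name from the gene tables: the Ndufa, Ndufab, Ndufb, Ndufc, Ndufs and Ndufv genes that carry a number, Sdha to Sdhd, the Uqcr genes, Cyc1, Cycs, the Cox genes from Cox4 to Cox8 and the Atp5 genes, without names marked as pseudogenes or opposite strand transcripts. This gave 96 of 78298 rows with 95 distinct symbols, since Atp5po stands under a pair of gene identifiers. Of these, 86 had enough counts to be tested among 13318 genes. By complex, 38 of 42 rows were tested for complex I, 4 of 4 for complex II, 9 of 9 for complex III, 1 of 1 for cytochrome c, 16 of 21 for complex IV and 18 of 19 for complex V. Ndufa4 and Ndufa4l2 were placed in complex IV, where their proteins are found.

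The cells were C2C12, an established mouse myoblast line that fuses into myotubes when serum is changed. One line was wild type (WT, 6 libraries) and the other (RGECO, 6 libraries) was C2C12 with a genetically encoded calcium indicator, a fluorescent protein that brightens when it binds calcium. All cultures of both lines shared the same conditions: a hydrogel of methacrylated gelatin and 14 days of differentiation in 10% horse serum, to which aminocaproic acid (1 mg/ml) and IGF-1 (50 ng/ml) were added. Neither the promoter that drives the indicator nor whether the line is a single clone was given in the sources used here. The same holds for whether each replicate was its own culture, so the p-values rest on a spread between libraries that may be technical. RGECO replicate 4 held 825 counts and was left out, and the other 11 libraries held 5881622 to 11926220 counts.

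The respiratory chain sits in the inner mitochondrial membrane. Complex I takes electrons from NADH and complex II from succinate, both pass them through ubiquinone to complex III, cytochrome c carries them to complex IV, and complex IV reduces oxygen. Complexes I, III and IV pump protons, and complex V, the ATP synthase, uses the returning protons to make ATP. All complexes except II mix subunits encoded in the nucleus with a few encoded in mitochondrial DNA. Differentiating muscle builds mitochondria and replaces some complex IV subunits with isoforms found mainly in heart and skeletal muscle. In RNA of whole cultures, fewer cells of a type and less RNA per cell cannot be told apart.

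No member differed between the lines at an adjusted p of 0.05 in the quasi-likelihood test of edgeR, adjusted over all tested genes by the Benjamini-Hochberg method (0 of 86), while 8.35% of all tested genes did. At an unadjusted p of 0.05, 5 members passed (4 higher in RGECO and 1 lower), which is 5.81% of the members against 22.1% of all genes. No member had ranges of CPM (counts per 1000000 counts of a library, scaled by TMM) that did not overlap between the lines, against 7.97% of all genes. With limma on log2(TPM + 1), where TPM is the deposited length-corrected transcripts per 1000000, 0 members passed, with 4.54% of all genes passing, and 14 had an unadjusted p under 0.05 (16.3%), against 20% of all genes. DESeq2 called 1 member, the complex I subunit Ndufc2 (adjusted p = 0.0339), against 12.6% of all genes.

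The log2 fold changes of the members, RGECO against WT, had a median of 0.011 and ran from -0.80 to 0.56. The 95% confidence interval lay inside a 2-fold change in either direction for 82 of the 86, or 95.3%, against 74% of all genes. For 58 members (67.4%) it lay inside 1.5-fold, against 43.3% of all genes. The members' level was above that of most genes, with a median of 130.5 TPM against 14.4 TPM for all genes tested. Between libraries of the same line the coefficient of variation had a median of 19.8% for the members and 21.6% for all genes. The 4 intervals that reached past 2-fold belonged to Cox6a2, Ndufa4l2, Atp5mk and Ndufa1.

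**Figure D1:**
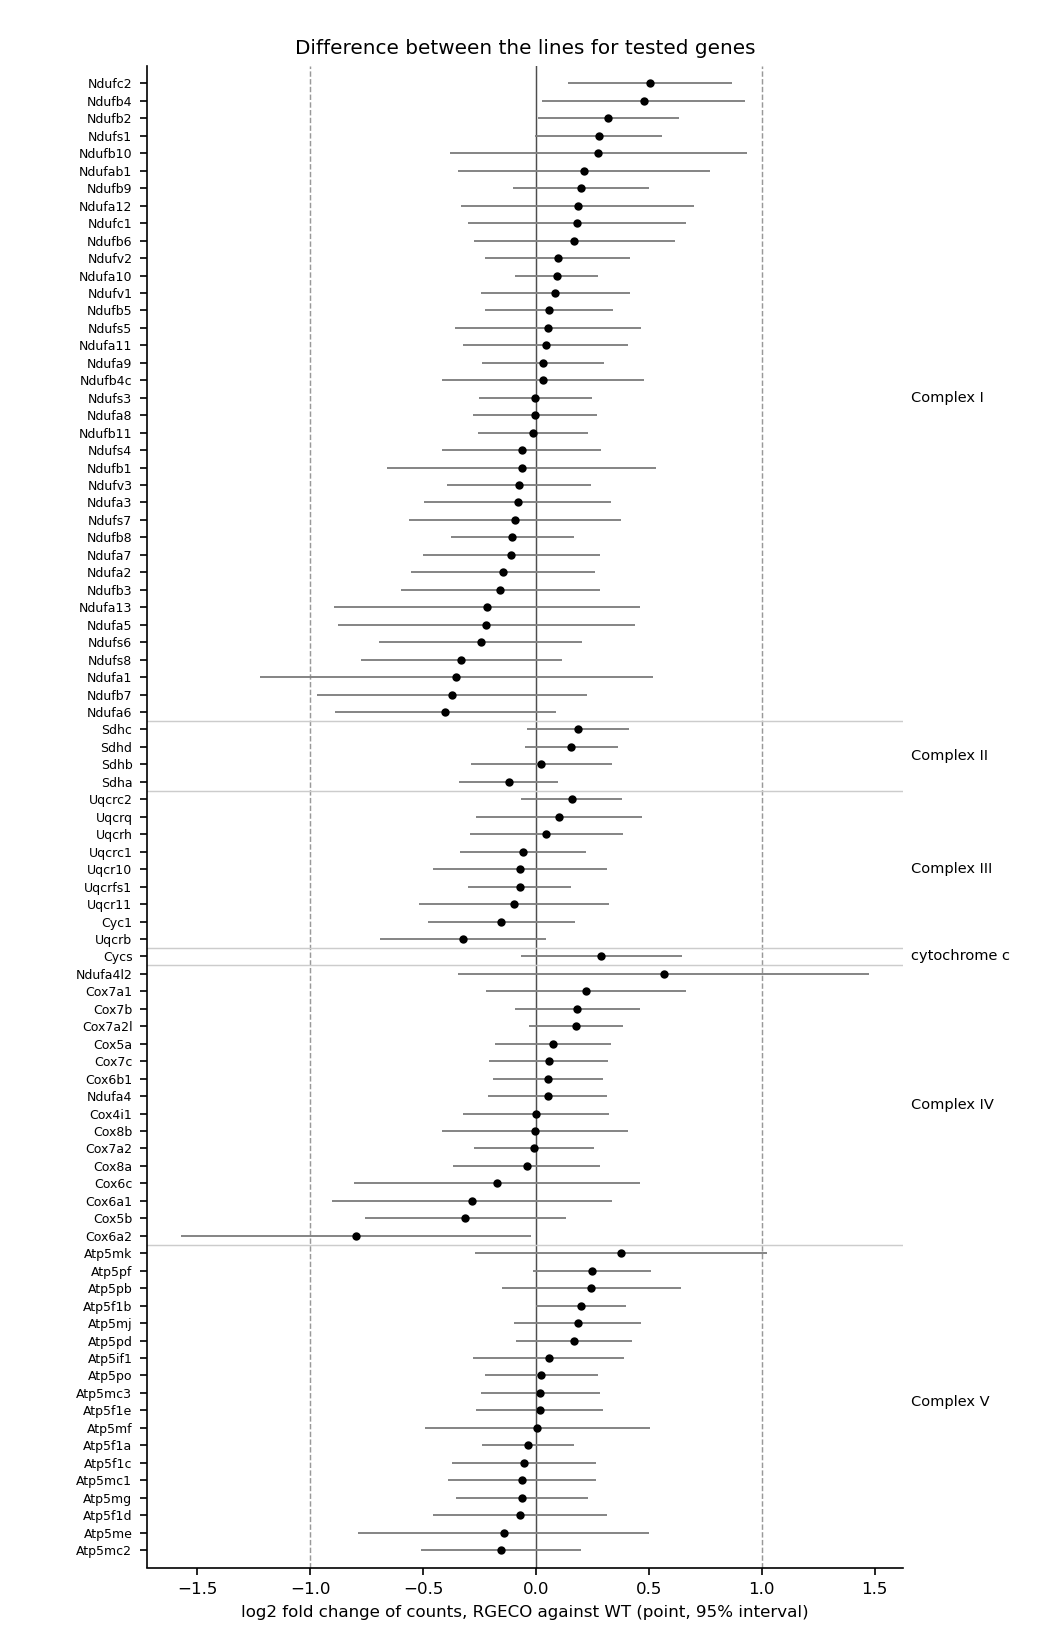
Log2 fold change of tested members in RGECO against WT from the edgeR fit (points) with its 95% confidence interval (lines), by complex, with dashed lines at a 2-fold change. Most points sit near 0, and only the intervals of Cox6a2, Ndufa4l2, Atp5mk and Ndufa1 reach past a dashed line.

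Complex I was represented by 38 tested members, 7 of them core subunits, most of which hold the flavin, the iron-sulfur clusters or the quinone site. The core subunits had a median log2 fold change of -0.0035 (range -0.33 to 0.28), and 6 of the 7 intervals lay inside 1.5-fold. Ndufs1, the large iron-sulfur subunit of the NADH-oxidising arm, stood at 86.9 to 149 CPM in WT (median 114) and at 112, 140, 135, 156 and 141 CPM in RGECO replicates 1, 2, 3, 5 and 6. Of the 5 RGECO values 4 were above the WT median, and the ranges overlapped (log2 fold change 0.28, SE 0.13, adjusted p = 0.232). Ndufv1, which binds NADH and the flavin, stood at 128 to 213 CPM in WT (median 149) and at 154, 147, 160, 227 and 136 CPM in RGECO. RGECO replicate 5 was above every other library, and the remaining RGECO libraries lay inside the WT range. Ndufs7, which carries the last iron-sulfur cluster before ubiquinone, had 62.5 ± 23.5 CPM in WT and 58.5 ± 10.96 CPM in RGECO (SD, n = 6 and 5). The means differed by less than the SD within a line.

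The 31 tested accessory subunits of complex I, which stabilise the complex and take part in its assembly, had a median log2 fold change of -0.0052. Ndufc2, an accessory subunit of the membrane arm, had the smallest p among all members. It stood at 10.5 to 15.9 CPM in WT (median 13.4) and at 17.6, 19.3, 13.4, 22.9 and 20.1 CPM in RGECO. In 4 of the 5 RGECO libraries it was above all of WT, and RGECO replicate 3 lay inside the WT range. The log2 fold change was 0.50 (SE 0.17, 95% interval 0.14 to 0.87), with an unadjusted p of 0.00954 and an adjusted p of 0.0829 in edgeR. Without RGECO replicate 3, the lowest RGECO value, the adjusted p in edgeR was 0.0441. With any other library left out it ran from 0.0648 (WT replicate 3) to 0.169 (RGECO replicate 5), and with the replicate block it was 0.192.

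Ndufb4 and Ndufb2, also accessory subunits, are named here because they were among the 5 with an unadjusted p under 0.05, after their values were seen. Ndufb4 stood at 11.5 to 29.1 CPM in WT (median 18.0) and at 27.5, 29.7, 20.2, 29.2 and 22.9 CPM in RGECO (log2 fold change 0.48, SE 0.21, adjusted p = 0.193). All RGECO values were above the WT median, but WT replicate 4 stood among the highest RGECO values. Without WT replicate 4, singled out after its value was seen, the adjusted p in edgeR was 0.0484. With any other library left out it ran from 0.168 (RGECO replicate 3) to 0.332 (RGECO replicate 2). Ndufb4 is also uncertain because of Ndufb4c, which shares its name stem: Ndufb4c was listed at 250.4 ± 34.0 TPM in WT and 294 ± 54.4 TPM in RGECO (SD, n = 6 and 5), above Ndufb4 at 32.6 ± 18.6 and 48.2 ± 11.1 TPM, and reads of close copies may have been split between them. Ndufb2 stood at 12.6 to 18.4 CPM in WT (median 13.5) and at 16.6, 17.9, 19.0, 20.5 and 17.5 CPM in RGECO (log2 fold change 0.32, SE 0.15, adjusted p = 0.213), so the ranges overlapped through WT replicates 3 and 4, the highest of their line.

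Ndufa6, an accessory subunit of the LYR family, had the lowest fold change of complex I. It stood at 18.2 to 42.7 CPM in WT (median 23.5) and at 15.3, 24.4, 23.2, 13.8 and 24.1 CPM in RGECO (log2 fold change -0.40, SE 0.23, adjusted p = 0.336), and without WT replicate 2 the fold change was -0.21. By level, Ndufb9 was the highest of complex I at 370 TPM over the 11 libraries and Ndufb1 the lowest at 9.47 TPM. The least variable tested member in CPM, chosen after its values were seen, was Ndufa10, with a coefficient of variation of 5.14%. In TPM its coefficient of variation was 19.8%, so it was not the steadiest on that scale. The 4 complex I rows that were not tested (Ndufa11b, Ndufb11b, Ndufs6b and Ndufb4b) had at most 78.9 counts over the 11 libraries, all in at most 3 libraries.

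**Figure D2:**
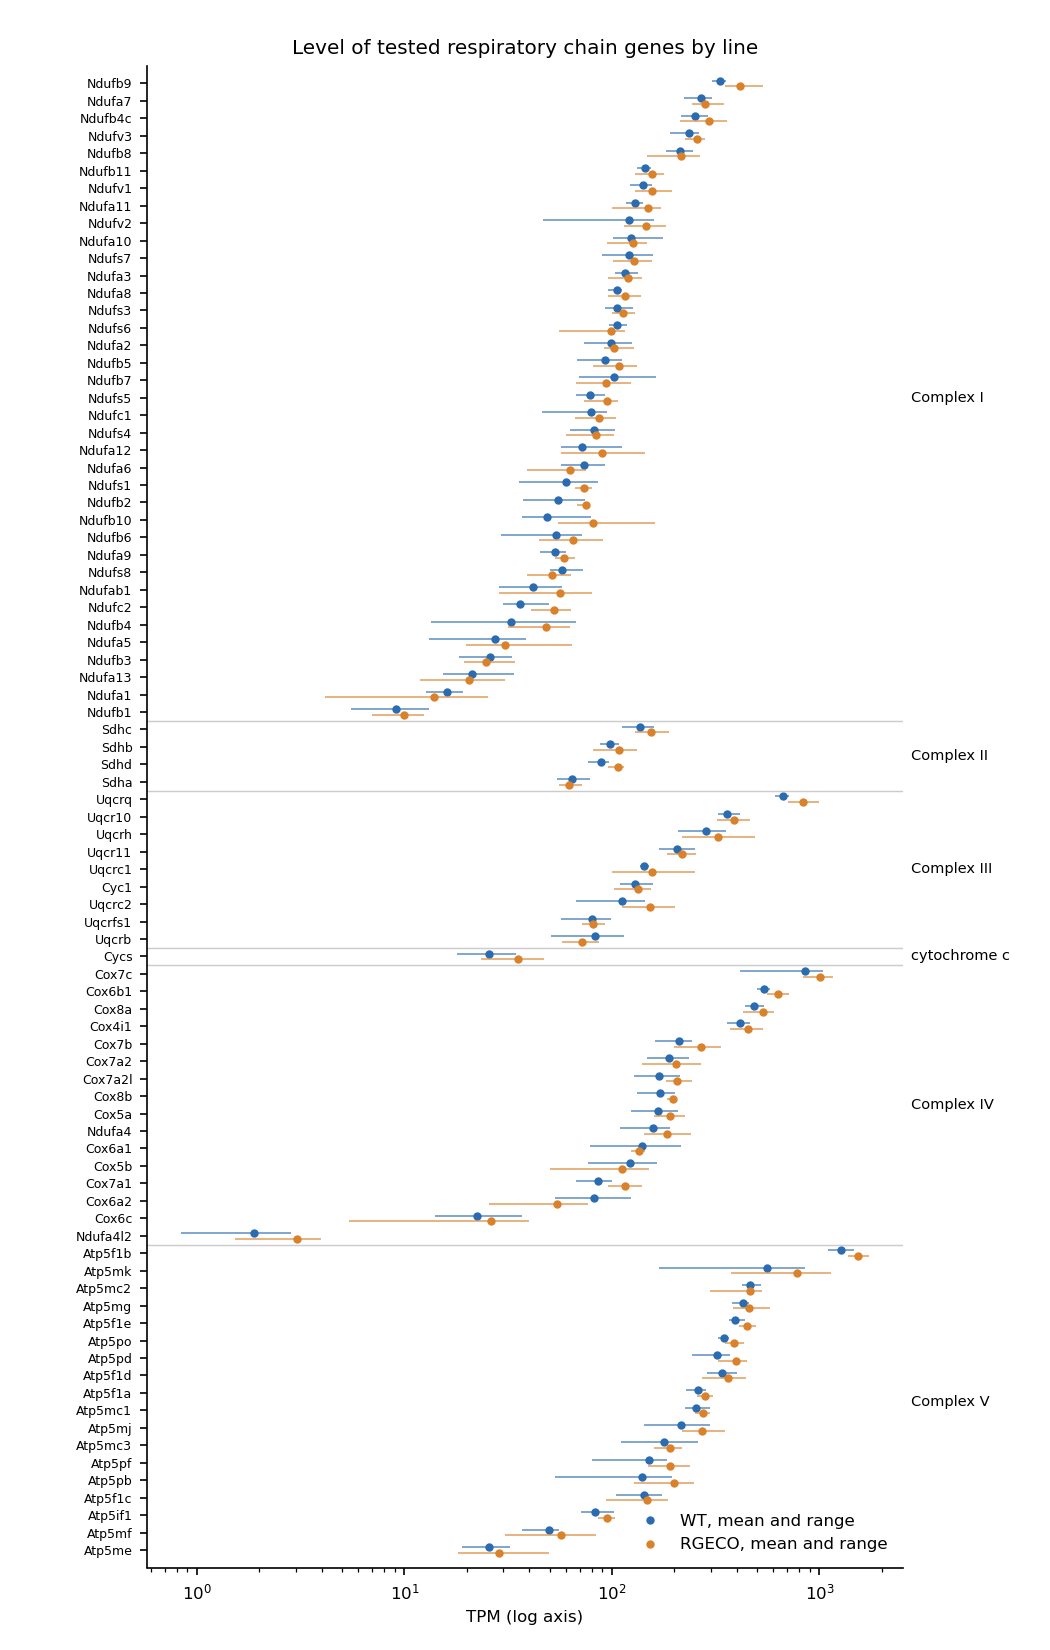
Mean (point) and range (line) of the deposited TPM of tested members in WT and RGECO on a log axis, ordered by complex and level. Levels run from Ndufa4l2 at 2.42 TPM to Atp5f1b at 1394 TPM.

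Complex II, succinate dehydrogenase, has only nuclear-encoded subunits and also works in the citric acid cycle. Its 4 genes had a median coefficient of variation of 10.3% in CPM, and all 4 intervals lay inside 1.5-fold. Sdha, Sdhc and Sdhd were among the steadier members, at 9.39%, 11.3% and 7.57%, while Sdhb was at 18.0%. Sdha, the flavoprotein that oxidises succinate, stood at 132 to 158 CPM in WT (median 140) and at 104, 133, 126, 147 and 138 CPM in RGECO (log2 fold change -0.12, SE 0.10, adjusted p = 0.548). RGECO replicate 1 was the lowest library and the others fell within or near the WT range. Sdhb, the iron-sulfur subunit, had 80.8 ± 12.1 CPM in WT and 82.0 ± 17.4 CPM in RGECO (SD, n = 6 and 5). The membrane anchors Sdhc and Sdhd had log2 fold changes of 0.19 (SE 0.11, adjusted p = 0.342) and 0.16 (SE 0.10, adjusted p = 0.386). By level Sdhc was the highest of the 4 at 144 TPM and Sdha the lowest at 63.2 TPM.

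Complex III passes electrons from ubiquinol to cytochrome c. Its 9 members had a median log2 fold change of -0.07, with 3 above 0 and 6 below, and all 9 intervals lay inside 2-fold. Uqcrfs1, the Rieske iron-sulfur protein, stood at 65.3 to 85.9 CPM in WT (median 83.3) and at 77.4, 75.5, 68.5, 85.2 and 72.1 CPM in RGECO. Every RGECO value lay inside the WT range (log2 fold change -0.07, SE 0.11, adjusted p = 0.76). The core protein Uqcrc1 had a log2 fold change of -0.06 (SE 0.13), and Cyc1, the cytochrome c1 haem protein, one of -0.15 (SE 0.15, adjusted p = 0.616). The largest differences of the complex were 0.16 (SE 0.11, adjusted p = 0.431) for the core protein Uqcrc2 and -0.32 (SE 0.17, adjusted p = 0.296) for the small subunit Uqcrb. Uqcrq, a small subunit, was the most abundant at 740.2 TPM, and Uqcrb was the least at 78.0 TPM.

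Cycs, the mobile carrier between complexes III and IV, stood at 22.2 to 35.3 CPM in WT (median 28.6) and at 31.4, 37.5, 22.9, 36.7 and 44.2 CPM in RGECO. The 3 highest libraries were RGECO libraries and RGECO replicate 3 was near the lowest of WT, so the ranges overlapped (log2 fold change 0.29, SE 0.17, adjusted p = 0.343). Its level was 30.015 TPM over the 11 libraries, below the members of complex III.

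Complex IV, cytochrome c oxidase, is where the tissue isoforms lie. Of its 21 rows, 16 were tested, and their log2 fold changes ran from -0.80 for Cox6a2 to 0.56 for Ndufa4l2 with a median of 0.03. Cox4i1, the general isoform of subunit IV, was at 414 ± 34.7 TPM in WT and 454 ± 58.2 TPM in RGECO (SD, n = 6 and 5), with a log2 fold change of 0.001 (SE 0.15). Its partner Cox4i2, known from lung and from cells short of oxygen, had 0 counts in all 11 libraries, where 3 counts would be 0.246 to 0.525 CPM (counting error only). Cox8c, Cox7b2 and Cox6c2 likewise had 0 counts, and Cox6b2, known from testis, had 9 counts in 3 WT libraries and 0 in RGECO. Cox6b1, the general partner of Cox6b2, was at 538 ± 25.6 TPM in WT and 633 ± 66.7 TPM in RGECO (SD, n = 6 and 5). Its log2 fold change on counts was 0.05 (SE 0.11, adjusted p = 0.848 in edgeR), and the adjusted p in limma on TPM was 0.179. Cox5a and Cox5b, which sit beside the catalytic core, had log2 fold changes of 0.07 (SE 0.12) and -0.31 (SE 0.21, adjusted p = 0.422), and that of Cox5b was -0.17 without WT replicate 1 and -0.19 without WT replicate 2. Cox7c was the most abundant of the complex at 918 TPM.

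Cox6a2, the heart and skeletal muscle isoform of subunit VIa, was the only member lower in RGECO at an unadjusted p under 0.05. It stood at 20.7 to 68.5 CPM in WT (median 27.6) and at 14.2, 30.3, 29.6, 11.03 and 22.0 CPM in RGECO. WT replicates 1 and 2, at 58.9 and 68.5 CPM, were above all other libraries, RGECO replicates 1 and 5 were below all of WT, and the remaining libraries overlapped. The log2 fold change was -0.80 (SE 0.36, 95% interval -1.57 to -0.02), with an unadjusted p of 0.0443 and an adjusted p of 0.21 in edgeR. It was -0.53 (adjusted p = 0.38) without WT replicate 2 and -0.64 (adjusted p = 0.353) without RGECO replicate 5. Its general partner Cox6a1 was high in the same pair of WT libraries, at 70.2 and 94.0 CPM, and at 22.0 CPM in the lowest WT library, against 38.4, 43.3, 45.5, 41.5 and 38.5 CPM in RGECO (log2 fold change -0.28, SE 0.29, adjusted p = 0.632). Without WT replicate 2 the fold change of Cox6a1 was -0.0024, and it was -0.15 without WT replicate 1 and -0.43 without WT replicate 6. On the log2(TPM + 1) scale the difference of Cox6a1 was 0.02 (adjusted p = 0.975 in limma). Cox6a2 had the highest coefficient of variation among the tested members, 54.4%.

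As a share of the summed TPM of Cox6a1 and Cox6a2, Cox6a2 made up 28.9% to 44.5% in WT (median 37.7%) and 22.3%, 35.3%, 33.7%, 17.2% and 30.8% in RGECO. The lowest shares were RGECO replicates 5 and 1 and the highest were WT replicates 6 and 1, with the others overlapping. The mean share was 37.1% ± 5.39 in WT and 27.9% ± 7.78 in RGECO (SD, n = 6 and 5), a difference of -9.19 percentage points. The two-sided exact permutation test over 462 assignments of the libraries gave p = 0.0498, and 0.348 after Benjamini-Hochberg adjustment over the 7 shares tested, where the smallest p the design allows is 0.00216. The share without RGECO replicate 5 differed by -6.53 points.

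Cox7a1, the muscle isoform of subunit VIIa, stood at 11.3 to 23.6 CPM in WT (median 15.3) and at 16.2, 23.4, 20.6, 20.8 and 16.1 CPM in RGECO. All RGECO values lay within the WT range (log2 fold change 0.22, SE 0.21, adjusted p = 0.592), and the fold change was 0.14 without WT replicate 4, 0.34 without WT replicate 1 and 0.35 without WT replicate 2. On the TPM scale Cox7a1 stood at 66.8 to 100.1 TPM in WT (median 87.4) and at 113, 139, 119, 112 and 95.3 TPM in RGECO. There, 4 of the 5 RGECO libraries were above all of WT, and the difference of log2(TPM + 1) was 0.43 (unadjusted p = 0.00506, adjusted p = 0.0752 in limma). It made up 31.5% ± 5.88 of the summed TPM of Cox7a1 and Cox7a2 in WT and 36.7% ± 5.10 in RGECO (SD, n = 6 and 5, exact permutation p = 0.16, adjusted 0.561). Cox7a2, the general isoform, had a log2 fold change of -0.01 (SE 0.12). Cox7a2l, a related protein that joins complexes III and IV into supercomplexes, stood at 205 ± 25.1 TPM in RGECO and 169 ± 34.5 TPM in WT (SD, n = 5 and 6), and its log2 fold change on counts was 0.18 (SE 0.10, adjusted p = 0.315).

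Cox8b, the muscle isoform of subunit VIII in rodents, stood at 19.0 to 43.7 CPM in WT (median 26.9) and at 24.4, 29.3, 26.7, 31.2 and 28.4 CPM in RGECO, all inside the WT range (log2 fold change -0.0043, SE 0.19). Its share of the summed TPM of Cox8a and Cox8b was 25.9% ± 2.44 in WT and 27.4% ± 3.46 in RGECO (SD, n = 6 and 5, exact permutation p = 0.426, adjusted 0.664). The general isoform was thus the more abundant transcript of each of these 3 pairs in all 11 libraries. Ndufa4l2, an alternative form of Ndufa4 known from cells short of oxygen, had 5 to 25 counts per library and made up 1.27% ± 0.669 of the pair in WT and 1.64% ± 0.538 in RGECO (SD, n = 6 and 5, exact permutation p = 0.331, adjusted 0.664). Its log2 fold change of 0.56 had an SE of 0.43, and Ndufa4 had one of 0.05 (SE 0.12).

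**Figure D3:**
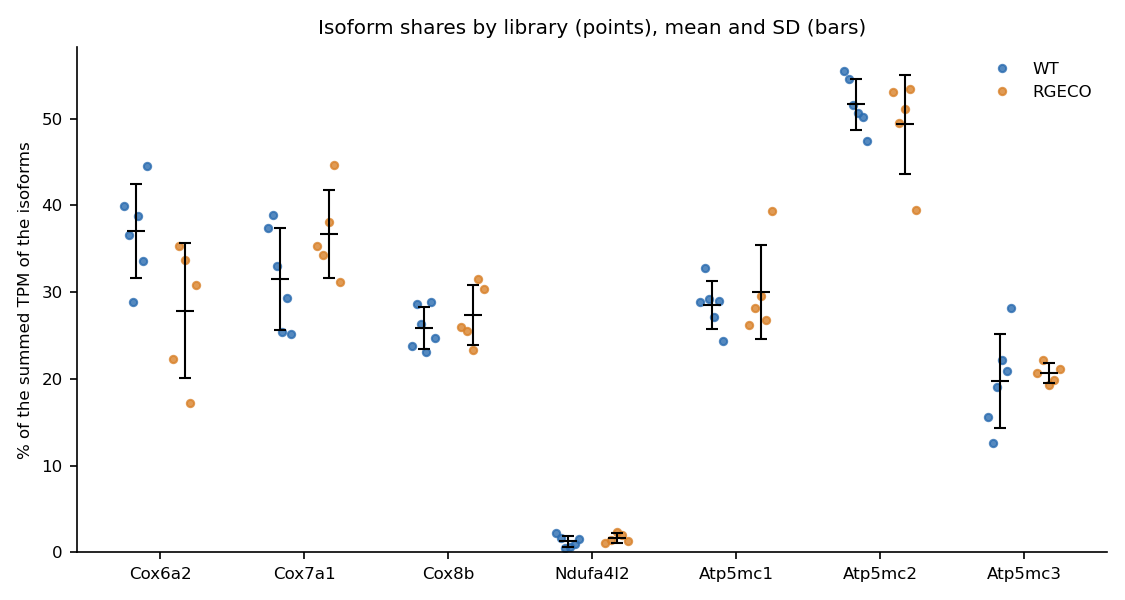
Share of each isoform in the summed TPM of its isoforms, one point per library, with the mean and SD of each line as bars. The 7 shares overlap between WT and RGECO, with Cox6a2 at 17.2% to 35.3% in RGECO and 28.9% to 44.5% in WT.

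The promoters of the isoform pair Cox8a and Cox8b, of Cox6a1 and of Cycs are shown as examples of windows that hold the motifs searched, and were chosen after the matches were seen. The windows of the pair Cox7a1 and Cox7a2 held none of the 6 motifs. Of the pair Cox6b1 and Cox6b2, Cox6b1 held the ETS core named below and Cox6b2 held none of the motifs. Cox6a2 was not among the 71 members matched. Windows run from 250 bases before to 50 after the RefSeq start (GRCm38.p6) and are printed 5′ to 3′ on the gene's strand, which is the minus strand for all 4, and capitals mark the motifs found on either strand. Cox8b at chr7:140900397-140900696 holds CAGCTG, the E-box of the myogenic factors, at -19 to -14 and at 16 to 21 from the start. Cox8a at chr19:7217567-7217866 holds the ETS core CCGGAAG, bound by factors such as GABPA, in reverse at -5 to 1 and at 32 to 38. Cox6a1 at chr5:115348909-115349208 holds the NRF1 core GCGCATGC on both strands, at -162 to -155 and overlapping it at -160 to -153, and an ETS core at -16 to -10. Cycs at chr6:50566520-50566819 holds the NRF1 core in reverse at -60 to -53.
Cox8b: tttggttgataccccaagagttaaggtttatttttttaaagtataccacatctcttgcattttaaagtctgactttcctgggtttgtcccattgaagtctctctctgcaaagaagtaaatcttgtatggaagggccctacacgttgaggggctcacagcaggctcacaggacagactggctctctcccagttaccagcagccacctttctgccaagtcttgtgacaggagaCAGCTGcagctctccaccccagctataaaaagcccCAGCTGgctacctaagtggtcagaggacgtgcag
Cox8a: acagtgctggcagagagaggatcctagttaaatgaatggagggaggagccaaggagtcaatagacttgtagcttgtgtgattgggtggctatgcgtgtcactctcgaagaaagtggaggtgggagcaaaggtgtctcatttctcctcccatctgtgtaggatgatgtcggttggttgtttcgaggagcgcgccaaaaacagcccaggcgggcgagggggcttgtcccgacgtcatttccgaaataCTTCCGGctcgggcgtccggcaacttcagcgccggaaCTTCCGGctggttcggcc
Cox6a1: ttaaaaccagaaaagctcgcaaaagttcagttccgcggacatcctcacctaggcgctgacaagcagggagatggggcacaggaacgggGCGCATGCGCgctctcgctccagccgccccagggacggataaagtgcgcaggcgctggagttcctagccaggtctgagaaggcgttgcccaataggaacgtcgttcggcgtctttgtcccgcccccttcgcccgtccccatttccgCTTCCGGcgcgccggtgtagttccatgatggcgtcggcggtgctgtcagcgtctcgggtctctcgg
Cycs: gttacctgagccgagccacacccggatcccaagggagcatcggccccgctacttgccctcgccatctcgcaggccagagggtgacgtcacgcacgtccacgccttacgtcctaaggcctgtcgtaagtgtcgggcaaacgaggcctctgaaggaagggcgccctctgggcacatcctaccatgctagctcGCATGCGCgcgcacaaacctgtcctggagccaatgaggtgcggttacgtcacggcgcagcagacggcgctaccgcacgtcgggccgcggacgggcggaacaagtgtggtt

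RefSeq windows were held for 71 of the 95 member symbols, and motif shares were counted on both strands. The NRF1 core was in 11 members (15.5%), among them Sdhb, Uqcrc1, Cycs and Cox6a1, and in 3.05% of all 27025 genes with a window and 5.99% of the 9750 tested ones. The YY1 core AAGATGGC was in 10 members (14.1%), 3.19% of all genes and 5.41% of the tested ones. The ERR half-site AAGGTCA was in 8 members (11.3%), 5.38% of all and 3.7% of tested genes. The ETS core was in 16 members (22.5%), 9.93% of all and 20.1% of tested genes, so the members were near the tested genes there. The E-box was in 6 members (8.45%), 18.3% of all and 18.2% of tested genes. The MEF2 site was in 0 of the 71 members, against 2.28% of tested genes. These differences in share were not tested. A match describes letters in a window and not a bound site.

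Complex V, the ATP synthase, held the most abundant member. Atp5f1b, the catalytic beta subunit, was at 1394 TPM over the 11 libraries and stood at 1550.7 to 1769.6 CPM in WT (median 1597.8) and at 1711.7, 1937.5, 1994.8, 2027.1 and 1759.8 CPM in RGECO. The 3 highest libraries were RGECO replicates 5, 3 and 2, while RGECO replicates 1 and 6 lay below the highest WT library. The log2 fold change was 0.20 (SE 0.09, 95% interval 0.002 to 0.40), with an unadjusted p of 0.048 and an adjusted p of 0.22 in edgeR. Atp5f1a, the alpha subunit that pairs with it, stood at 429.99 to 531 CPM in WT (median 452) and at 413, 468, 506, 462 and 450.02 CPM in RGECO (log2 fold change -0.03, SE 0.10, adjusted p = 0.889), and RGECO replicate 1 was the lowest library. Atp5if1, the inhibitor that blocks reverse operation of the enzyme, stood at 26.2 ± 5.14 CPM in WT and 27.2 ± 4.29 CPM in RGECO (SD, n = 6 and 5).

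The c subunits form the proton-driven ring and are encoded by Atp5mc1, Atp5mc2 and Atp5mc3, whose mature proteins are identical. Atp5mc2 made up 51.7% ± 2.98 of their summed TPM in WT and 49.4% ± 5.72 in RGECO (SD, n = 6 and 5, exact permutation p = 0.474, adjusted 0.664). Atp5mc1 made up 28.6% ± 2.75 and 30% ± 5.39 (exact permutation p = 0.667, adjusted 0.771), and Atp5mc3 19.8% ± 5.39 and 20.6% ± 1.14 (exact permutation p = 0.771, adjusted 0.771). The order Atp5mc2 above Atp5mc1 above Atp5mc3 held for the means of both lines. In WT replicate 6 Atp5mc3 (28.2%) was above Atp5mc1 (24.4%), and RGECO replicate 6 had nearly equal shares of Atp5mc1 (39.4%) and Atp5mc2 (39.5%). Without RGECO replicate 6 the RGECO difference in the Atp5mc1 share was -0.90 percentage points, against 1.44 with it, and that in the Atp5mc2 share 0.16 against -2.30. The difference in the Atp5mc3 share, 0.86 points, was 0.030 without WT replicate 1, -0.56 without WT replicate 2, 2.54 without WT replicate 6 and 0.46 without RGECO replicate 2. Atp5mk, a small subunit that holds enzyme dimers together, was uneven, at 37.7 to 127 CPM in WT (median 89.2) and 116, 165, 56.1, 97.8 and 125 CPM in RGECO (log2 fold change 0.38, SE 0.30, adjusted p = 0.522). Its fold change was 0.23 without WT replicate 2 and 0.21 without RGECO replicate 2. Atp5me, the subunit e beside it, was the lowest tested member of the complex at 27.0 TPM.

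Summed over all member rows, the 11 libraries gave different pictures on the CPM and TPM scales. Summed CPM was 7563.5 to 9553.2 in WT (mean 8357 ± 814, SD, n = 6) and 7589.0 to 9476.3 in RGECO (8708 ± 780, SD, n = 5), so the lines overlapped across almost their whole range. Summed TPM was 14230 to 16733 in WT (15770 ± 889) and 16953 to 20285 in RGECO (18020 ± 1320), with no overlap. This held for the total only, since the summed TPM of each complex and of cytochrome c overlapped between the lines. For complex I it was 3769 to 4076.4 in WT and 4018.1 to 4714.7 in RGECO. No single member had TPM ranges that did not overlap. WT replicate 2 was the highest library by summed CPM and the lowest by summed TPM. On the TPM scale 73 of 86 members (84.9%) were above 0 in RGECO against WT with a median difference of 0.13, against 61% of all genes and a median of 0.09. On counts 45 of 86 (52.3%) were above 0 with a median of 0.011, against 48.5% of all genes and -0.012. The members' transcripts are short, with a median of 669.5 bases in GENCODE M21 for 84 of them against 2202 bases for 11946 tested genes. Summed TPM of 9 skeletal myotube markers was 13090 to 15660 in WT and 15840 to 21540 in RGECO, also without overlap. That sum was mainly Acta1 (means of 7392 TPM in WT and 9486 TPM in RGECO), Mylpf (2953 and 3089) and Des (1675 and 2491). Ckm (478 and 417) and Myog (499 and 479) had lower mean TPM in RGECO, and the other markers higher. The part of transcript length or of myotube content in the TPM sums was not tested.

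**Figure D4:**
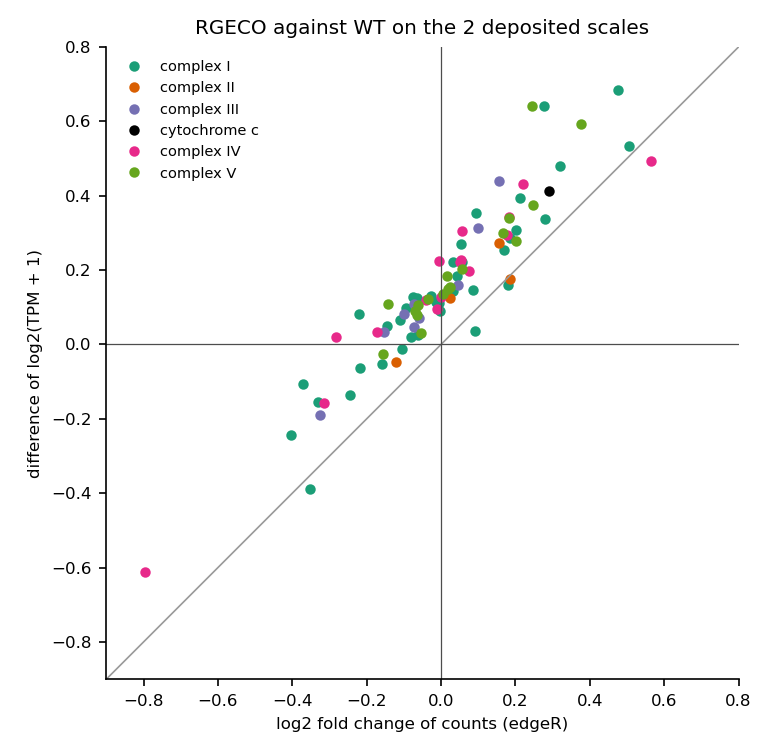
Difference of log2(TPM + 1) against the log2 fold change of counts for each tested member, RGECO against WT, coloured by complex, with the line of equal values. Most points lie above the line, with 73 of 86 above 0 on the TPM axis and 45 of 86 on the count axis.

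Within a line, many members were high or low in the same libraries. In WT, replicate 2 held the highest CPM of 43 of the 86 members and replicate 6 the lowest of 35. In RGECO, replicate 5 held the highest of 32 and replicate 2 of 29, while replicate 1 held the lowest of 45. Measured as the median deviation from the line's mean log2 CPM, the members stood at 0.25 in WT replicate 2 and -0.20 in WT replicate 6, and at 0.17 in RGECO replicate 2 and -0.24 in RGECO replicate 1. Over all tested genes the same medians lay between -0.03 and 0.03. TMM scaling holds the typical gene near 0 by design, so this does not show that the shifts are particular to the members. The share of counts in Malat1, a nuclear long noncoding RNA, was lowest in WT replicate 2 at 0.156% and highest in WT replicate 6 at 0.898%, and was 0.633%, 0.252%, 0.180%, 0.275% and 0.645% in RGECO.

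When the Malat1 share was added to the edgeR model as a covariate, 13 members passed (15.1%), with 20.8% of all genes passing. Of these, 4 were higher in RGECO (Ndufc2, Ndufs1, Uqcrc2 and Atp5pb) and 9 lower (Cox6a2, Cyc1, Atp5mc2, Ndufa6, Ndufa7, Ndufb7, Ndufs6, Ndufs7 and Ndufs8). With the share of mitochondrially encoded counts as the covariate, 7 passed (8.14%), with 23.5% of all genes passing: Ndufc2, Ndufs1, Uqcrc2, Atp5pb and Atp5pf higher, and Atp5mc2 and Ndufb7 lower. Ndufc2, Ndufs1, Uqcrc2 and Atp5pb were higher and Atp5mc2 and Ndufb7 lower in both of these models. The models share the same libraries, and both covariates were lowest in WT replicate 2 and highest in WT replicates 4 and 6. Their overlap is therefore no independent support.

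The 13 mitochondrially encoded subunits, which join the nuclear ones in complexes I, III, IV and V, varied far more than their nuclear partners. Their summed CPM was 1974.5 to 14337 in WT, a 7.26-fold range, and 2883.8 to 10818 in RGECO, against a 1.26-fold and a 1.25-fold range for the nuclear members. Of the 12 tested, 0 passed in edgeR, where 8.35% of all genes did, and 11 were below 0 with a list median of -0.85. An unadjusted p under 0.05 was found for 2 of the 12 (16.7%), both lower, against 22.1% of all genes. All 12 intervals reached past a 2-fold change. Limma on TPM called 0 of them, and DESeq2 called 1, the complex IV subunit gene mt-Co2, as lower (adjusted p = 0.0395). Among all genes limma on TPM called 4.54% and DESeq2 12.6%.

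**Figure D5:**
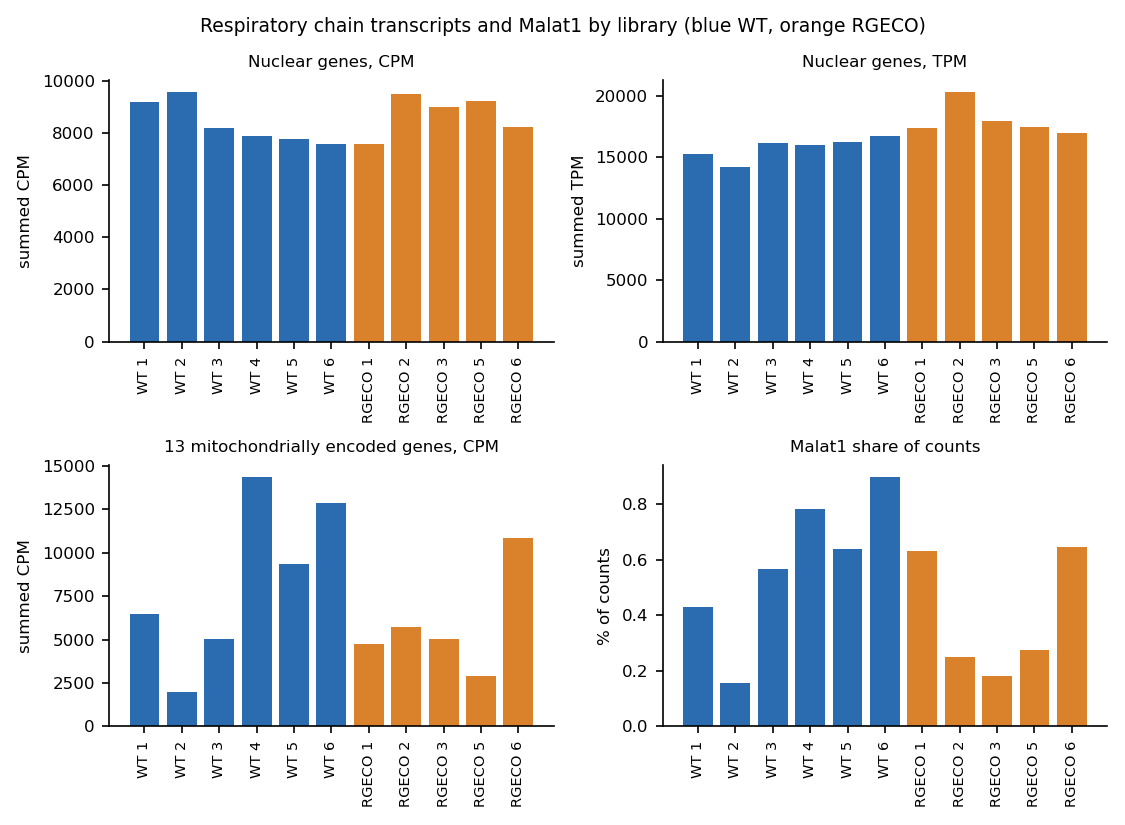
Summed CPM and summed TPM of the nuclear members, summed CPM of the 13 mitochondrially encoded subunits and the Malat1 share of counts in each library, as bars from 0 (blue WT, orange RGECO). The nuclear sums vary 1.26-fold (CPM) and 1.43-fold (TPM) over the 11 libraries, and the mitochondrially encoded sum 7.26-fold.

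Other genes of the pathway were read from the same fit. Of 54 tested assembly factors, which build the complexes and insert their cofactors, 1 passed in edgeR, where 8.35% of all genes did, and DESeq2 called 2, Higd1a and the complex IV factor Coa5. Higd1a, a small inner membrane protein that associates with complexes III and IV, rose from 16.7 ± 2.79 CPM in WT to 25.1 ± 5.55 CPM in RGECO (SD, n = 6 and 5, log2 fold change 0.59, SE 0.17, edgeR adjusted p = 0.0424), and did not pass on TPM (adjusted p = 0.28 in limma). The median of the assembly factors was 0.11. Of 18 genes of ubiquinone synthesis and other electron entry, 14 of the citric acid cycle and 7 of ATP export, 0 passed in edgeR and 1 in each list had an unadjusted p under 0.05, and DESeq2 called 0, 1 (citrate synthase, Cs, higher) and 1 (the outer membrane channel Vdac1, higher) of them. The medians of these lists were 0.04, 0.16 and 0.08, and limma on TPM called 0 in each. The 1 gene per list at an unadjusted p under 0.05 was 5.56%, 7.14% and 14.3% of the list, against 22.1% of all genes. Among all genes DESeq2 called 12.6% and limma on TPM 4.54%.

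Of 15 tested regulators of mitochondrial genes, 3 passed in edgeR, where 8.35% of all genes did. An unadjusted p under 0.05 in edgeR was found for 40% of the list (1 higher and 5 lower), against 22.1% of all genes. Ppargc1a, the coactivator known for driving mitochondrial biogenesis, rose from 12.3 ± 2.22 to 18.2 ± 1.41 CPM (SD, n = 6 and 5, log2 fold change 0.56, SE 0.16, edgeR adjusted p = 0.0386). Its relative Pprc1 fell by 0.63 on the log2 scale, from 72.3 ± 8.95 to 46.5 ± 4.40 CPM (SE 0.11, edgeR adjusted p = 0.00257). Esrrg, a nuclear receptor of oxidative muscle, fell by 0.77, from 12.1 ± 1.59 to 7.02 ± 1.68 CPM (SE 0.19, edgeR adjusted p = 0.0205). DESeq2 also called these 3, where it called 12.6% of all genes. None of the 3 passed in limma on TPM (adjusted p = 0.0889, 0.173 and 0.199). Esrra (0.27, SE 0.20), Nrf1 (-0.22, SE 0.15), Gabpa (0.04, SE 0.26) and Tfam, the mitochondrial DNA packaging factor (0.06, SE 0.23), did not pass, these being log2 fold changes.

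Markers of skeletal myotubes were present in all libraries, with Acta1 at a mean of 7392 TPM in WT and 9486 TPM in RGECO. Of the 9 listed, 1 passed in edgeR, where 8.35% of all genes did: Myh3, as higher in RGECO (adjusted p = 0.0202). The others above 0 on counts were Des (log2 fold change 0.44), Acta1 (0.22), Actn3 (0.195), Tnnt3 (0.08) and Mylpf (0.07). Below 0 were Ckm (-0.35), Myog (-0.18) and Myh1 (-0.02). Of 6 cardiac markers Nppa and Myl7 were at 0 in all libraries and Myh6 was the highest, at 17.9 TPM in WT and 11.7 TPM in RGECO, with the list at 20.0 to 41.9 and 18.4 to 24.1 TPM. Of 6 adipocyte markers Prdm16 and Plin1 were at 0, and nearly all of the list's 5.90 to 15.0 TPM in WT and 13.6 to 25.3 TPM in RGECO was Pparg, which passed as higher in edgeR (adjusted p = 0.00917). Of 5 neuronal markers Rbfox3, Snap25 and Slc18a3 were at 0, and nearly all of the list's 9.16 to 17.6 and 16.3 to 35.2 TPM was Tubb3 (higher, adjusted p = 0.0255). Of 4 macrophage markers Adgre1 was at 0 and Cd68 made up nearly all of 19.3 to 30.8 and 17.8 to 40.0 TPM. The 3 endothelial markers summed to at most 0.589 TPM. The 4 smooth muscle markers, mainly Acta2 and Tagln, summed to 1109 to 1390.0 TPM in WT and 724 to 1259 TPM in RGECO, with Tagln lower (adjusted p = 0.0178). The 5 markers of proliferating or reserve myoblasts summed to 52.7 to 97.4 and 56.4 to 85.0 TPM, with Ccnb1 lower (adjusted p = 0.00659) and Myf5 higher (adjusted p = 0.0228) in edgeR. Of 5 fibroblast markers Tcf21 was at 0. The fibroblast list summed to 444.6 to 733 TPM in WT and 351 to 429 TPM in RGECO, with Col1a1 lower and Dcn higher in RGECO by the edgeR test (adjusted p = 7.18e-05 and 0.00193). Any part of these other cell types' genes in the values of the respiratory chain members was not tested.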

How the data were processed

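Poly(A) RNA was sequenced on a Singular G4 from libraries amplified for 14 PCR cycles and read from both ends for 50 bases, per the labels' protocols. The authors deposited 2 gene tables of Salmon, per the file headers: expected counts, which are estimated and not normalised, and TPM, corrected for transcript length. Per the submitters' processing notes, the tools included Salmon, STAR, bedtools 2.25.0 and BWA 0.7.12-r1039, and mm10, hg19 and GRCm39 were named. Which build, annotation, Salmon version and strand setting made these tables is not given in the sources used here, so antisense reads cannot be separated from those of the gene.

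Rounded expected counts were tested in R 4.3.3 with edgeR 4.0.16 (filterByExpr, TMM, robust quasi-likelihood F test of the line, Benjamini-Hochberg adjustment over 13318 genes, threshold 0.05). The common coefficient of variation was 25.2%. Totals under 1000000 counts left a library out. Limma 3.58.1 on log2(TPM + 1), DESeq2 1.42.0, other scalings, covariates and left-out libraries were alternatives. A change on the TPM scale understates that of low genes. Isoform shares used two-sided exact permutation tests. Of the members, 70 had a count that was not whole in some library (tolerance 1e-06), and reads can be split with copies. No pair of libraries within a line was treated as a duplicate, with a chi-square per gene of at least 7.61 over 25 pairs.

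The members and all lists were chosen with earlier results of these data known. Named members are the isoforms, the core and carrier subunits and the highest and lowest by level and fold change in each complex. Others are named as chosen after their values were seen. The values of 1 tested member are not reported here on their own.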

Additional observations from a re-analysis of the deposited data

Results flagged for a closer look

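In 108 groups of libraries of a line (the values of each named member and share), 4 held a library far from the others by Dixon's 95% criterion, and chance gives about 1 in 20. RGECO replicate 6 had an Atp5mc1 share of 39.4% of the summed TPM of the c subunit genes, against 26.2% to 29.5% in the other RGECO libraries. The same library had an Atp5mc2 share of 39.5%, against 49.6% to 53.4%, and these shares are not independent since they are parts of the same sum. RGECO replicate 5, the shallowest library analysed, had Ndufv1 at 226.7 CPM, against 136.5 to 160.0 CPM in the other RGECO libraries. It also had Atp5me at 8.23 CPM, against 2.95 to 4.13 CPM.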

How the results depend on the processing

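The count of 0 members called was the same under 17 of the 22 alternatives, which were other scalings, no filter, limma on TPM with each pseudocount, all 12 libraries and most left-out libraries. DESeq2 called 1 member, the mitochondrial share as a covariate 7 and the Malat1 share as a covariate 13. Leaving out each library in turn gave 0 to 1. Among all genes the count of 1112 was 1674 with DESeq2, 605 with limma on TPM, 258 without its filter, 3133 and 2771 with the covariates, and 777 with the replicate block. The 5 replicate numbers shared by the lines correlated at -0.18 to 0.41, with 1 over 0.1, so the numbers were not taken to pair libraries. With the replicate block 0 members were called and their median log2 fold change was -0.021.

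Direction turned for Atp5f1b with all 12 libraries (-0.042, adjusted p = 0.999 in edgeR), where RGECO replicate 4 enters with 825 counts. Cox4i1, at 0.001 in the main fit, had no direction to turn. It was -0.18 with the Malat1 covariate (adjusted p = 0.13 in edgeR), -0.11 with the mitochondrial covariate, -0.030 with the replicate block and 0.13 in limma on log2(TPM + 1). Of 902 values of 41 named members, 110 (12.2%) changed sign with neither value past an unadjusted p of 0.05. No isoform share passed under any alternative run, and no share of RGECO replicate 4 was computed. Leaving out a library or blocking by replicate leaves the exact test fewer assignments than the main run. A share had less room to pass there, so these runs do not show that the result is stable. The cause of these differences was not tested. Depth limits the rarest members: Ndufa4l2 rested on 5 to 25 counts per library.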

Other observations

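RGECO replicate 4, left out above, held 3 counts in 1 of the member rows, Cox6c, of its 825 counts. Of 15 rows marked as pseudogenes of member families, 6 had a count in the 11 libraries. Ndufa12-ps held 2700.9 counts in WT and 2350.5 in RGECO, against 2668.6 for Ndufa12 over both lines. Cox5b-ps held 356 and 436 counts, against 3358.9 for Cox5b over both lines.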
